A study of Mus musculus with 38 samples.

Results

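Type I interferon response genes were followed through 38 bulk RNA-seq libraries of mouse tail skin. The members are a named list of 46 symbols, matched to the symbols of the count table. Ddx58 and Rigi are names of the same gene, so the list held 45 genes, and 43 of the 19219 genes used here were members. Mx2 and Ifi204 were not analysed here.

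The libraries fall into 6 groups, named here after their labels. The no_induction group (9 libraries) came from wild type animals without vitiligo induction. The vitiligo group (9 libraries) came from animals of a vitiligo model after induction. The no_induction_ABX group (6 libraries) was wild type and given ABX, which the design text says served to deplete gut microbes. The vitiligo_ABX group (6 libraries) had both induction and ABX. The vehicle group (3 libraries) and the hippuric_acid group (5 libraries) were wild type and received an intraperitoneal injection of vehicle or of hippuric acid, a metabolite made with the help of gut microbes. The genotype of the induced animals, strain, age, the way vitiligo was induced, the agents in ABX, and doses and times are not given in the sources used here. Nothing in the labels says that each library came from a separate animal, so the spread behind each p-value may be technical.

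Type I interferons are secreted when a cell senses foreign or misplaced nucleic acid. They bind the receptor IFNAR, whose kinases JAK1 and TYK2 activate transcription factors. The complex that contains STAT2 and IRF9 binds a DNA motif, the interferon-stimulated response element, in the promoters of many genes. The induced genes include RNA and DNA sensors, transcription factors that extend the response, proteins that block viral RNA or its translation, and brakes on the pathway. In vitiligo skin, interferon gamma from T cells is a well-described driver of inflammation, and it induces many of the same genes.

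The response element is shown first because it is the sequence the members are known to share. Its core was searched as GAAANNGAAA on both strands of RefSeq promoters of build GRCm38.p6, from 250 bases before to 50 bases after the transcription start. A promoter entry was found for 34 of the 43 members. Of these, 17 members (50%) held at least 1 match, against 1079 of 27025 genes (3.99%) in the whole promoter table. Overlapping matches were counted separately, and a match is a description of letters, not of binding.

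**Figure D1:**
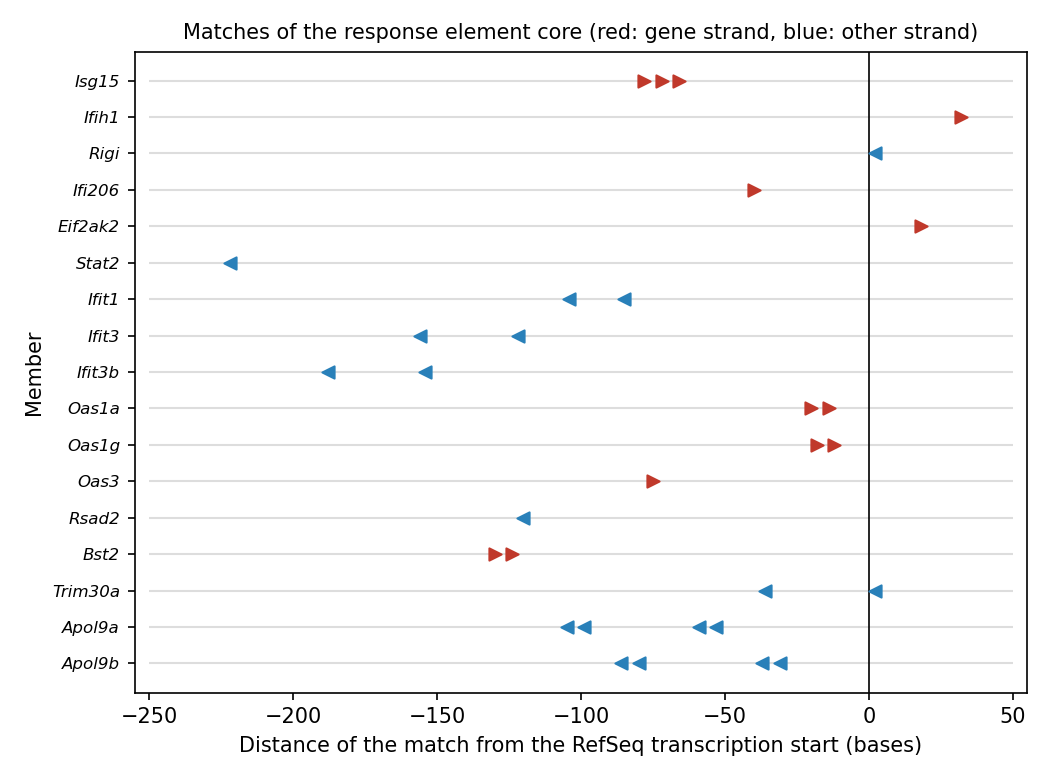
Position of each match of the response element core in the promoters of the 17 members that held one. The horizontal axis gives the distance in bases of the first base of the match from the RefSeq transcription start, triangles point along the strand of the match, and members with several annotated starts show the matches of all entries; 28 of the 32 matches lie before the start.

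The windows below each span 100 bases that end before the transcription start, written 5′ to 3′ along the gene, with matches of the core in capitals. They show members of the ISG15, IFIT, OAS, radical SAM and apolipoprotein L families, which the results below turn on.
Isg15: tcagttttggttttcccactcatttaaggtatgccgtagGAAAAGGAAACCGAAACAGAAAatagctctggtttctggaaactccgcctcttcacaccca
Ifit1: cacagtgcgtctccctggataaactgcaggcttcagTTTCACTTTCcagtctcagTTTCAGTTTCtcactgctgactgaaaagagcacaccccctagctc
Ifit3: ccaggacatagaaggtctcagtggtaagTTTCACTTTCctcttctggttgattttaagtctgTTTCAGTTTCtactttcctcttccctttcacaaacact
Ifit3b: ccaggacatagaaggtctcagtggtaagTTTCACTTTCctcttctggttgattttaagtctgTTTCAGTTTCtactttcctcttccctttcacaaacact
Oas1a: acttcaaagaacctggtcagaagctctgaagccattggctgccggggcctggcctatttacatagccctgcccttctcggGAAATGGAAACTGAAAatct
Oas3: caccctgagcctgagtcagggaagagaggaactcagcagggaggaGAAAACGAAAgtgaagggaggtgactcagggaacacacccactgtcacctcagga
Rsad2: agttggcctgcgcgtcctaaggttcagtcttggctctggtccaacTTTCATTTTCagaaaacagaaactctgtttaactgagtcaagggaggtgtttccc
Apol9a: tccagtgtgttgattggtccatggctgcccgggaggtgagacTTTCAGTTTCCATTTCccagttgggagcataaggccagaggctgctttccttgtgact

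These windows lie at chr4:156200836-156200935 on the minus strand (Isg15), chr19:34640749-34640848 on the plus strand (Ifit1), chr19:34583345-34583444 on the plus strand (Ifit3) and chr19:34607741-34607840 on the plus strand (Ifit3b). The others lie on minus strands, at chr5:120907526-120907625 (Oas1a), chr5:120777680-120777779 (Oas3), chr12:26456518-26456617 (Rsad2) and chr15:77411082-77411181 (Apol9a). The Isg15 window holds 3 overlapping matches, whose first bases lie at -78, -72 and -66 from the start. The Ifit3 and Ifit3b windows had 0 mismatches over the 100 bases compared. Ifit3 with Ifit3b, Oas1a with Oas1g, and Apol9a with Apol9b are near-identical gene pairs, and the way reads were shared between such copies is not given in the sources used here, so the split of reads within each pair is uncertain.

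Library totals ranged from 15.3 M to 27.9 M counts (M, mega). Levels are given as CPM (counts per M of the library total, after scaling the totals with TMM factors). Epidermal markers were present throughout: the summed level of 4 suprabasal keratinocyte genes ranged from 7903 to 36018 CPM. Hoxb13, a gene of the tail region, was 2.06 to 12.3 CPM in no_induction, 0.323 to 9.62 in vitiligo, 24.8 to 30.3 in no_induction_ABX, 13.8 to 34 in vitiligo_ABX, 4.29 to 9.31 in vehicle and 26.3 to 37.7 in hippuric_acid. It was lowest in vitiligo replicates 000 (0.323 CPM) and 047 (0.696 CPM), which had the highest interferon levels of their group (4.17 and 3.65, the measure defined below). A principal component computed without the interferon genes (24.9% of the variance) set the 17 ABX and hippuric acid libraries (2.61 to 30.1) apart from the other 21 (-33.3 to -3.65). The labels give no cohort or batch, so a cohort cannot be told apart from ABX or from hippuric acid. No_induction replicates 011 and 012 and vehicle replicate 001 held Y-linked transcripts, and the other libraries were at or near 0. Skin is a mixture, and in bulk RNA fewer cells of a type and less RNA per cell cannot be told apart.

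Members differed widely in level in uninduced skin. Counts per kilobase of exon and per M of library total (RPKM, with GENCODE M21 exon lengths found for all 43 members) allowed genes to be compared. Ifi27l2a, a small mitochondrial interferon-induced protein, had the highest mean in no_induction (34.8 RPKM), followed by Ifi35 (9.79), the tetherin gene Bst2 (7.95) and the ubiquitin ligase gene Trim25 (7.14). Oas3 had the lowest (0.0902 RPKM), below Ifi206 (0.0915), Ifi44 (0.0985) and Apol9a (0.102). In hippuric_acid libraries Ifi27l2a was again the highest (148 RPKM), followed by Ifit3 (46.1), Bst2 (20.6), Isg15 (17.5), Irf7 (16.1) and Ifit1 (14.2).

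The mean of log2(CPM + 1) over the 43 members, called the interferon level here, describes each library in a single number. It ranged from 2.3 to 2.83 in no_induction (median 2.50), from 2.53 to 4.17 in vitiligo (median 3.11), from 2.79 to 4.30 in no_induction_ABX (median 3.11) and from 2.62 to 3.51 in vitiligo_ABX (median 3.18). The vehicle libraries had 2.39, 2.60 and 2.86, and the hippuric_acid libraries 2.90, 3.81, 4.17, 4.44 and 4.61. All 5 hippuric_acid libraries were above all 3 vehicle libraries, while the vitiligo and no_induction_ABX ranges each overlapped that of no_induction.

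Within groups the members moved together by library. Vitiligo replicate 000 had its group's highest value for 40 of the 43 members, no_induction_ABX replicate 002 for 35 and hippuric_acid replicate 2 for 35. Hippuric_acid replicate 3 had its group's lowest value for all 43 members, vehicle replicate 003 for 28, vitiligo_ABX replicate 002 for 23 and vitiligo replicate 001 for 21. In no_induction_ABX, replicates 002 (4.30) and 004 (4.12) stood above the other 4 libraries (2.79 to 3.21). Vitiligo replicates 001, 062 and 063, with interferon levels of 2.53, 2.63 and 2.82, had summed melanocyte marker levels of 108, 87.1 and 85.6 CPM. Replicates 006, 260, 039, 047 and 000, with levels of 2.86, 3.14, 3.26, 3.65 and 4.17, had 10.9, 33.1, 46.9, 29.2 and 24.7 CPM, and the remaining library had a level of 3.11 and 12 CPM. The order of the libraries by interferon level thus placed the melanocyte-rich ones lowest, which is a description of 9 libraries and was not tested.

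**Figure D2:**
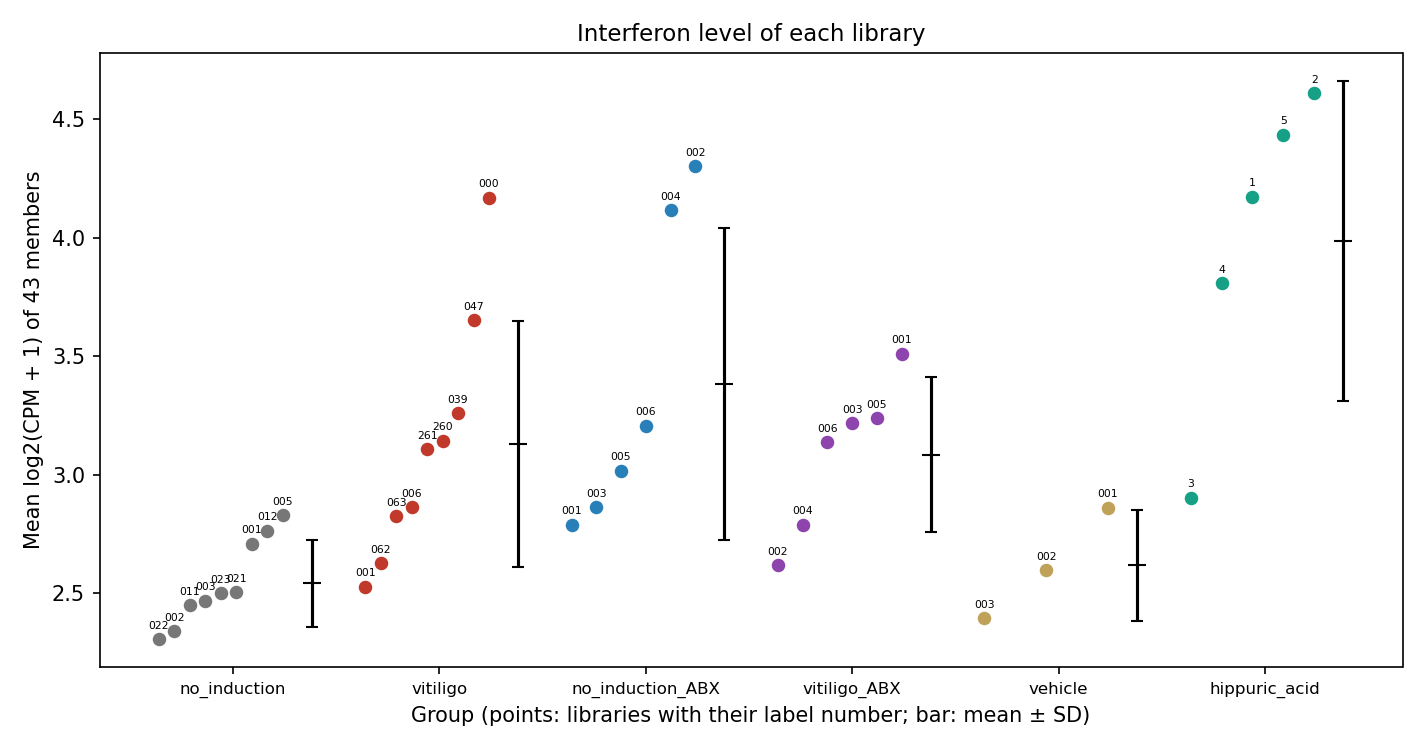
Interferon level of each of the 38 libraries, the mean log2(CPM + 1) of 43 members, by group; points carry the label number of the library and bars give the mean ± SD. The 5 hippuric_acid libraries (2.90 to 4.61) lie above the 3 vehicle libraries, and vitiligo and no_induction_ABX spread from levels of uninduced skin up to 4.17 and 4.30.

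Induction of vitiligo went with higher levels across the list. Of 42 members tested, 24 rose and 0 fell (edgeR quasi-likelihood test, adjusted p under 0.05 over all genes), where 5.27% of all 13826 genes tested were called higher and 2.47% lower. The median log2 fold change was 0.91 (range 0.17 to 1.98), against 0.01 over all genes, and all 42 estimates were above 0. Oas3, an enzyme that makes a messenger which activates RNase L, had the largest rise, 3.96-fold. By role, 4 of 6 OAS genes, 5 of 8 other antiviral effectors, 3 of 4 genes of ISG15 conjugation, 3 of 6 sensors, 2 of 4 IFIT genes, 2 of 4 PARP group genes, 4 of 7 other interferon-induced genes and 1 of 3 transcription factors rose. No member separated the groups completely, which 0.694% of all genes tested did in this direction. Oas1g, Oas2, Oas3, Oasl1, Ifi44, Apol9a and Apol9b did not reach the cutoff of the count filter in enough no_induction libraries and were tested through the vitiligo libraries. Of the other 35 members 20 rose, with a median of 0.85. The counts by role include Oas1g and Oas3 (OAS genes) and Ifi44 and Apol9a (other interferon-induced genes) as called. Those calls, and the rank of Oas3 as the largest rise, are not used as support. The count fell to 12 without vitiligo replicate 000, 13 without vitiligo replicate 047, and 15 without no_induction replicate 021 or replicate 022, and it was 4 with 1 surrogate variable. It was 40 with limma-voom and quality weights.

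Several markers moved with these members, and no defining marker of the cell types given here was at 0 in all libraries of a group. The summed adipocyte level (10 genes, all 10 called higher) was 2238 to 5784 CPM in vitiligo and 460 to 1560 in no_induction, so that the groups did not overlap. The adipocyte level used as a covariate here and below is the mean log2(CPM + 1) of the same 10 genes, not the sum. Overlap between groups is given for the sum only. With that level as a covariate 0 members were called, and the median over the 42 members was -0.19 with 13 estimates above 0. Of the 13 members described by role below, 8 had an estimate under 0, from -0.0472 for Irf7 to -0.87 for Xaf1. With the Hoxb13 level as a covariate, which overlapped between these groups, 0 members were called, the median was 0.38 and 39 of 42 estimates were above 0. The T and NK cell sum (11 genes, 2 of 7 tested called higher) was 12.3 to 42.7 against 13.0 to 22.5 CPM, and the dendritic and Langerhans cell sum (5 genes, 3 called higher) was 21.9 to 53.2 against 17.5 to 33. The plasmacytoid dendritic cell sum (4 genes, 0 of 3 tested called) was 3.77 to 10.1 against 4.29 to 8.93 CPM. The macrophage sum (10 genes, 0 called) was 248 to 1452 against 331 to 1022 CPM. The melanocyte sum (5 genes, 3 called lower) was 10.9 to 108 against 85.9 to 134. The part of these cells in the result was not tested.

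ABX without induction (no_induction_ABX against no_induction, called ABX alone below) went with a rise of most members. Of 42 members tested 37 rose and 0 fell, where 15.4% of 13971 genes were called higher and 15.8% lower. The median log2 fold change was 1.19 (range -0.21 to 2.79), against -0.00 over all genes. All 4 IFIT genes, all 6 OAS genes and all 4 PARP group genes rose, together with 5 of 6 sensors and 7 of 8 other antiviral effectors. Ifit2, Ifit3b, Oasl2, Rtp4 and Parp14 were higher in all 6 ABX libraries than in all 9 controls (5 of 42 members), where 2.73% of all genes tested separated in this direction. Oas1g, Ifi44 and Apol9a passed the count filter only with the ABX libraries, and of the other 39 members 34 rose. The OAS count above includes Oas1g, whose call is not used as support. Members not called were Trim25, Ifi209, Irf9, Isg20 and Ifi27l2a, with log2 fold changes of 0.17, 0.71, 0.54, -0.21 and 0.77.

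This comparison crosses the division of the libraries by the first principal component described above, so a cohort and ABX cannot be told apart. The adipocyte sum was 197 to 473 CPM with ABX against 460 to 1560 without (all 10 genes called lower), which is opposite in direction to the difference beside the vitiligo result. The count was 6 with the adipocyte level and 0 with the Hoxb13 level as a covariate. The Hoxb13 level did not overlap between these groups, so it and ABX cannot be told apart. The macrophage sum was 633 to 1002 CPM against 331 to 1022 (2 of 10 genes called higher), and the mast cell sum was 705 to 1088 against 236 to 955 (4 of 5 called higher). The suprabasal keratinocyte sum was 7903 to 17516 against 15118 to 36018 CPM (3 of 4 genes called lower), and the neutrophil sum was 5.6 to 30.6 against 16.6 to 123 (2 of 4 tested called lower). Their part in the result was not tested.

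Hippuric acid went with the largest median difference of the 5 comparisons between groups. Of 43 members tested, 33 rose and 0 fell, where 5.48% of 14097 genes were called higher and 8.29% lower. The median log2 fold change was 1.57 (range -0.00 to 3.96), against 0.02 over all genes, and 30 of the 33 rose by more than 2-fold. Ifit1, whose product binds viral RNA lacking host cap methylation, was 15.6-fold higher. Ifi206, Oas1g, Oas3, Oasl1, Ifi44 and Apol9b passed the count filter only through the hippuric_acid libraries. Of the other 37 members 28 rose, with a median of 1.44, among them all 6 sensors other than Ifi206, all 4 IFIT genes and 3 of 4 genes of ISG15 conjugation. For 18 of these 37 members all 5 hippuric_acid libraries were above all 3 vehicle libraries, where 8.88% of all genes tested separated in this direction. Isg20, an exonuclease that degrades viral RNA, showed no such difference (log2 fold change -0.00 ± 0.28 SE, adjusted p = 0.997).

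The number of calls in hippuric_acid against vehicle rested on few libraries. It was 8 without vehicle replicate 003, 10 without vehicle replicate 002, 20 without vehicle replicate 001, 21 without hippuric_acid replicate 1, 41 without hippuric_acid replicate 3, and 2 with limma-voom and quality weights. For the 13 members described by role below the estimate stayed above 0 under every setting run, except for Samd9l with the Hoxb13 level as a covariate (-0.93). The adipocyte sum was 256 to 939 CPM with hippuric acid against 1830 to 2167 (9 of 10 genes called lower) and the suprabasal keratinocyte sum was 7987 to 10360 against 23487 to 34989 (3 of 4 called lower). With the adipocyte or the Hoxb13 level as a covariate 0 members were called. Neither the adipocyte sum nor the Hoxb13 level overlapped between these groups, so neither can be told apart from hippuric acid. The macrophage sum was 832 to 1038 CPM against 484 to 881 (1 of 10 called higher). Their part in the result was not tested, and a cohort cannot be told apart from hippuric acid.

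**Figure D3:**
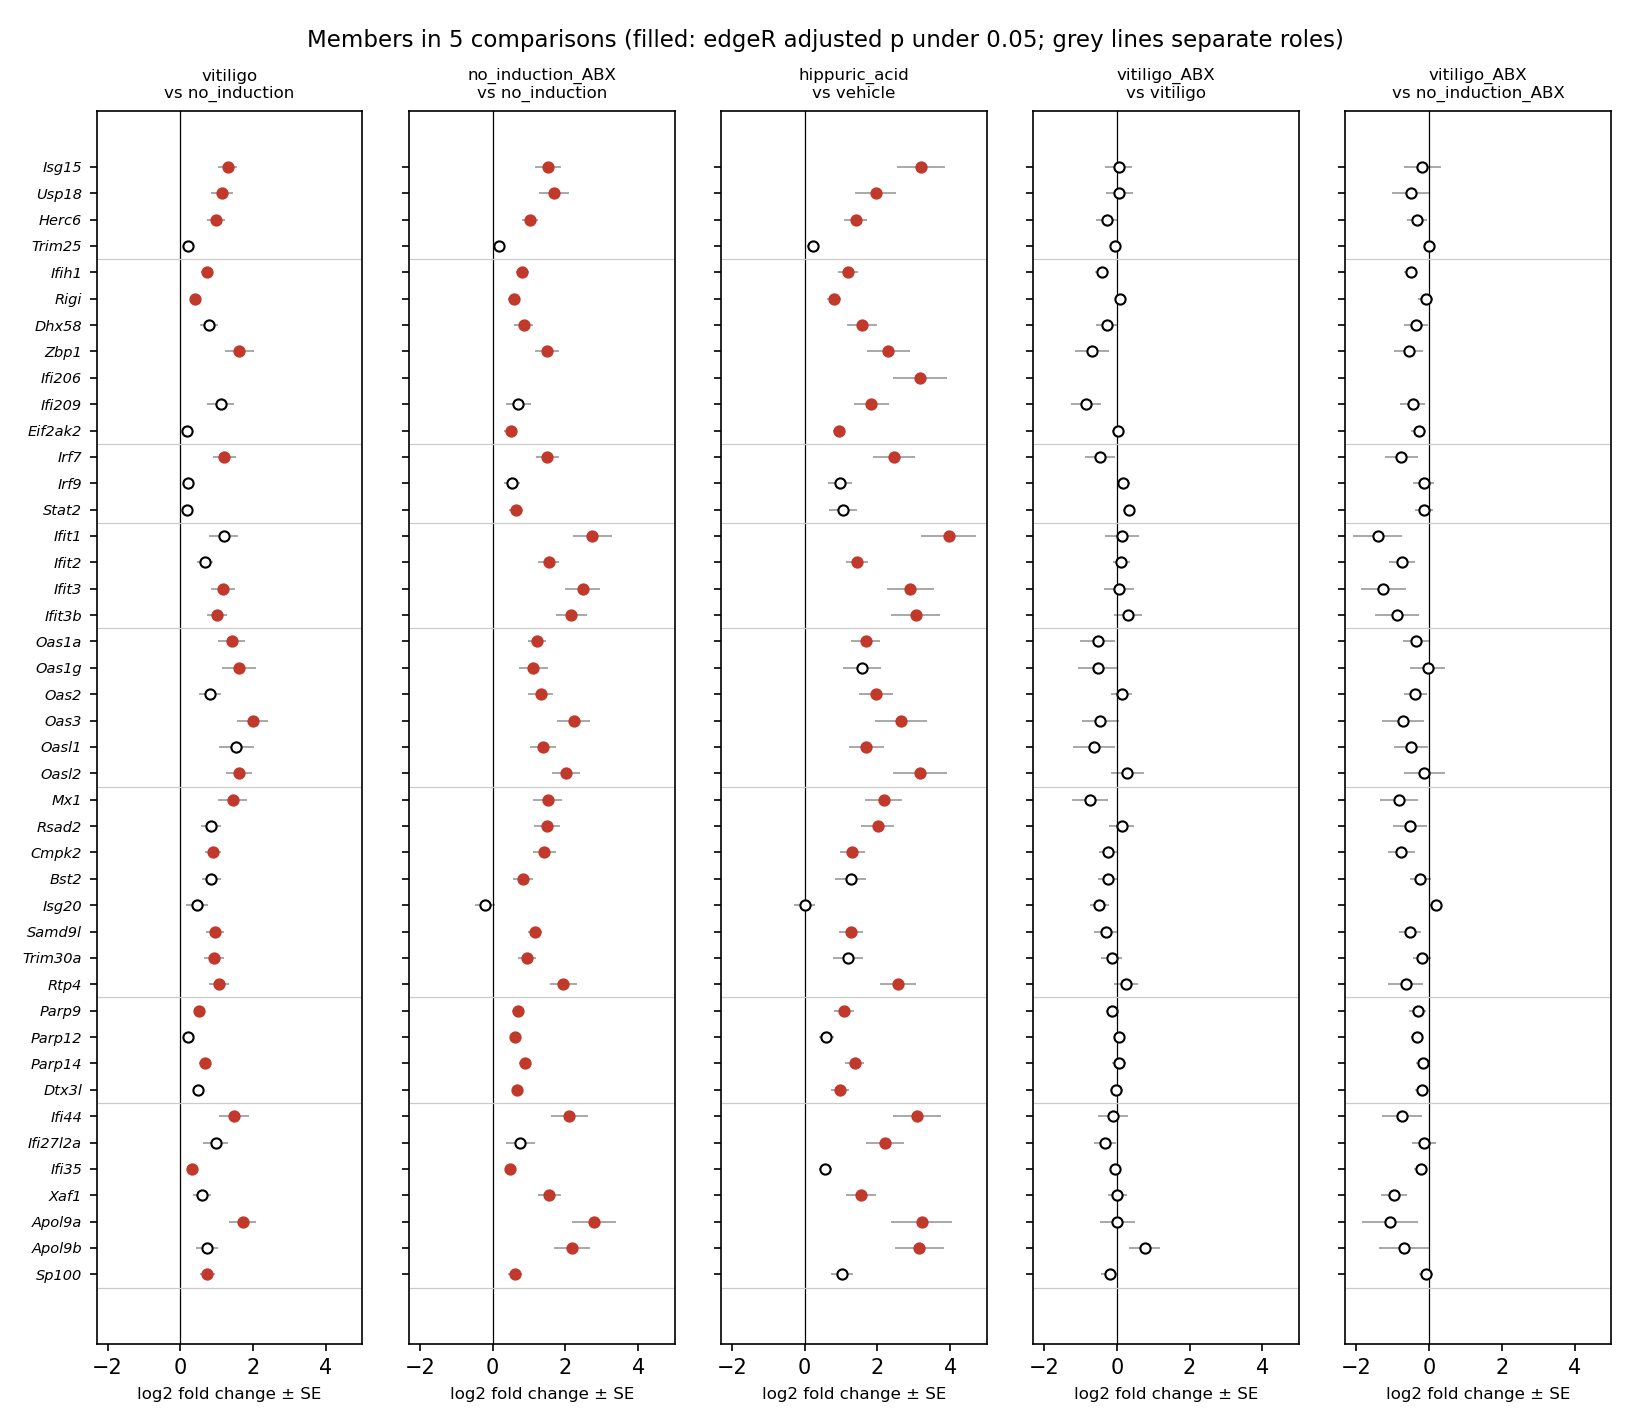
Log2 fold change ± SE of each member in 5 comparisons, ordered by role; filled points have an edgeR adjusted p under 0.05 over all genes. Filled points number 24, 37 and 33 in the 3 panels on the left and 0 in the 2 panels on the right.

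Between the induced groups with and without ABX no difference was called. In vitiligo_ABX against vitiligo, 0 of 42 members were called by edgeR, DESeq2 or limma-voom, and 1 had an unadjusted edgeR p under 0.05, where 5.06% of 14014 genes were called higher and 8.05% lower. The median log2 fold change was -0.05 (range -0.84 to 0.77), with 19 estimates above 0 and 23 below. With the Hoxb13 level as a covariate 0 members were called but all 42 estimates were above 0 (median 0.96, 23 with an unadjusted p under 0.05). With the adipocyte level 34 were (median 0.87). Neither the Hoxb13 level nor the adipocyte sum overlapped between these groups. Hoxb13 was 13.8 to 34 CPM in vitiligo_ABX against 0.323 to 9.62 in vitiligo, and the adipocyte sum 302 to 1034 against 2238 to 5784. The covariates and the group thus cannot be told apart here, and no direction is read from these settings. Ifi209, a DNA-sensing PYHIN family member, had the lowest estimate (-0.84 ± 0.41 SE, adjusted p = 0.183), and Apol9b the highest (0.77 ± 0.43 SE, adjusted p = 0.249). Isg15 (0.05 ± 0.37), Ifit1 (0.15 ± 0.47) and Mx1 (-0.73 ± 0.49) had errors as large as many of the differences seen in the other comparisons, and a p over the threshold does not show that the groups were alike.

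Between the 2 ABX groups most estimates for induction were below 0, but edgeR called none. In vitiligo_ABX against no_induction_ABX, 0 of 42 members were called by edgeR and 3 had an unadjusted p under 0.05, where 3.72% of 13876 genes were called higher and 1.25% lower. DESeq2 called 1 member lower, Xaf1 (-0.98, adjusted p = 0.0361), and limma-voom called 0. The median log2 fold change was -0.36 (range -1.41 to 0.19), and 41 of the 42 estimates were below 0, Isg20 being the exception. Ifit1 had the lowest (-1.41 ± 0.67 SE, adjusted p = 0.255), followed by Ifit3 (-1.25 ± 0.62 SE, adjusted p = 0.283). No_induction_ABX replicates 002 and 004 carried the highest values in that control group, as given above. The mean interferon level was 3.08 in vitiligo_ABX against 3.38 in no_induction_ABX, but the medians were 3.18 and 3.11. The lower estimates thus do not describe the median library of each group.

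The difference between the effects of induction without and with ABX was tested directly as an interaction over the 30 libraries of the 4 groups. The induction effect was smaller with ABX for 19 of 43 members and larger for 0, where 4.77% of 14310 genes were called lower and 6.68% higher. The median interaction was -1.43 on the log2 scale (range -2.79 to -0.23), against -0.03 over all genes, and all 43 estimates were below 0. The 19 were Herc6, Ifih1, Zbp1, Irf7, Ifit1, Ifit2, Ifit3, Ifit3b, Oas1a, Oas3, Mx1, Cmpk2, Samd9l, Rtp4, Parp9, Parp14, Ifi44, Xaf1 and Apol9a, with estimates from -2.79 ± 0.82 SE for Apol9a (edgeR adjusted p = 0.0245) to -0.84 ± 0.26 for Parp9 (adjusted p = 0.0301). Ifih1 had the smallest adjusted p (0.00295, estimate -1.24 ± 0.26). All 4 IFIT genes were among the 19. Oas3, Ifi44 and Apol9a, also among them, passed the count filter with induction only through the vitiligo libraries. How members passed the filter was not checked for the interaction, so these calls are not used as support. Since ABX without induction was itself higher than no_induction, the interaction compares levels in all 4 groups and not only in the induced ones. It fell to 6 members without no_induction_ABX replicate 002, 11 without no_induction_ABX replicate 004 and 12 without vitiligo_ABX replicate 002, rose to 31 without vitiligo replicate 001, and was 3 with 1 surrogate variable, 1 with the adipocyte level and 2 with the Hoxb13 level as a covariate.

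**Figure D4:**
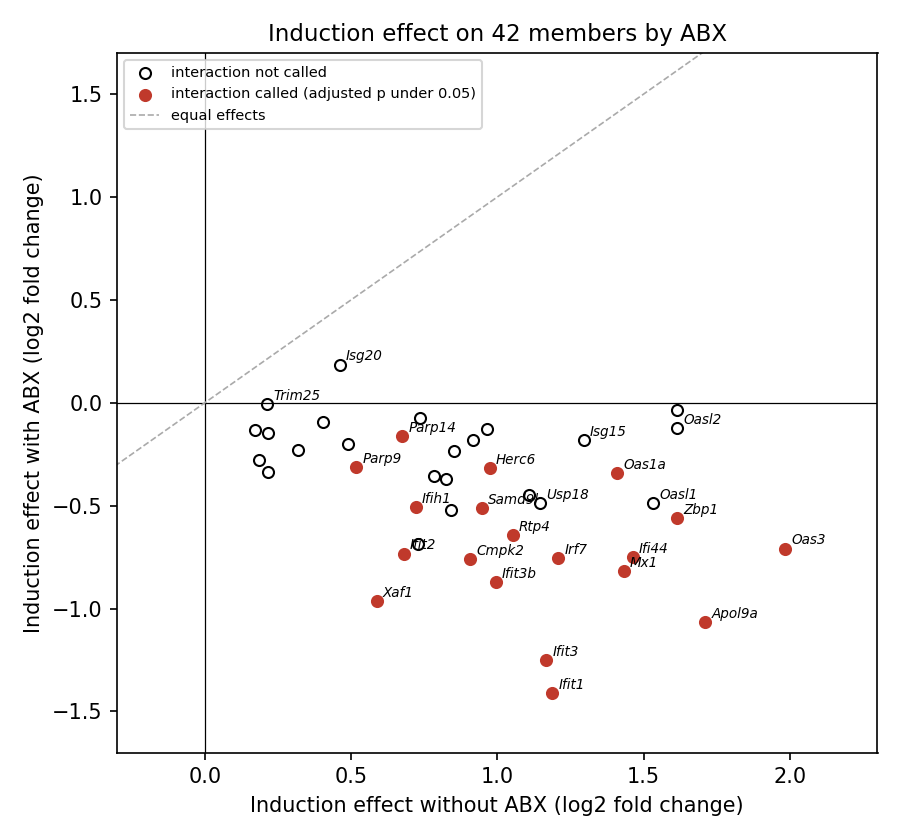
Log2 fold change of induction without ABX (horizontal axis, vitiligo against no_induction) and with ABX (vertical axis, vitiligo_ABX against no_induction_ABX) for 42 members; filled points have an interaction with an adjusted p under 0.05, and the dashed line marks equal effects. All points lie right of 0 and below the dashed line, and 41 of 42 lie below 0 on the vertical axis.

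The members chosen by rule are now described by role, starting with the ISG15 system, in which a ubiquitin-like protein is joined to targets by Herc6 and removed by Usp18. Isg15 ranged from 1.28 to 2.52 CPM in no_induction (median 1.81) and from 2.52 to 11.1 in vitiligo (median 3.71). In the ABX groups it ranged from 1.48 to 11.1 (median 3.41) without induction and from 2.67 to 8.37 (median 3.18) with it. It was 0.819, 1.42 and 1.96 CPM with vehicle and 3.18, 9.61, 11, 17.8 and 24.5 with hippuric acid. Of the 9 vitiligo libraries 8 exceeded every no_induction library, and the hippuric_acid and vehicle groups did not overlap. Isg15 rose by 1.3 ± 0.27 SE (log2) with induction (edgeR adjusted p = 0.00535), by 1.52 ± 0.36 with ABX alone (adjusted p = 0.00483) and by 3.21 ± 0.66 with hippuric acid (adjusted p = 0.0151). Herc6 ranged from 1.77 to 3.84 CPM in no_induction (median 2.24), 1.24 to 6.93 in vitiligo (median 4.55), 2.35 to 7.28 in no_induction_ABX (median 4.35) and 1.93 to 4.75 in vitiligo_ABX (median 3.93). Vehicle libraries had 1.7, 2.99 and 3.52 CPM of Herc6 and hippuric_acid libraries 4.93, 5.08, 7.51, 8.15 and 10.6, without overlap. The Herc6 rises were 0.97 ± 0.25 (adjusted p = 0.0188), 1.02 ± 0.22 (adjusted p = 0.00238) and 1.40 ± 0.32 (adjusted p = 0.0169) in the same order. Usp18 rose in the same 3 comparisons (2.22-fold, 3.24-fold and 3.86-fold), while Trim25 was not called in any, with log2 fold changes of 0.21, 0.17 and 0.22.

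Among sensors, Ifih1 encodes MDA5, which binds long double-stranded RNA. Its level ranged from 9.02 to 18.1 CPM in no_induction (median 10.3), 12.3 to 27.2 in vitiligo (median 18.2), 15.5 to 29.9 in no_induction_ABX (median 18.0) and 10.7 to 19.8 in vitiligo_ABX (median 13.7). It was 12.2, 13.0 and 15.9 CPM with vehicle and 16.1, 28.2, 30.6, 39.6 and 41.5 with hippuric acid. Hippuric_acid replicate 3 was just above the highest vehicle library and the other 4 were well above it. The log2 rises of Ifih1 were 0.72 ± 0.17 SE with induction (edgeR adjusted p = 0.0113), 0.82 ± 0.17 with ABX alone (adjusted p = 0.00168) and 1.19 ± 0.28 with hippuric acid (adjusted p = 0.0204). Zbp1, a sensor of left-handed nucleic acid that can start necroptosis, rose by 3.06-fold, 2.80-fold and 4.92-fold. Eif2ak2, the kinase PKR, which stops translation, was not called with induction (0.19 ± 0.15) and had the smallest adjusted p of all members with hippuric acid (0.94 ± 0.16, adjusted p = 0.00484). Ifi206 passed the count filter only in the interaction and, through the libraries where it was high, in the hippuric acid comparison, so its call there supports nothing. It was 0.0980, 0.203 and 0.441 CPM with vehicle and 0.530, 1.42, 1.69, 3.44 and 3.87 with hippuric acid.

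Of the transcription factors, Irf7 drives the later, amplified wave of interferon production. Irf7 ranged from 7.0 to 14.9 CPM in no_induction (median 8.77), 8.24 to 63.9 in vitiligo (median 15.6), 9.29 to 60.0 in no_induction_ABX (median 19.6) and 6.83 to 26.4 in vitiligo_ABX (median 14.9). With vehicle it was 9.60, 10.2 and 13.3 CPM, and with hippuric acid 12.4, 52.8, 60.1, 84.9 and 93.5. Hippuric_acid replicate 3 lay within the vehicle range and the other 4 libraries were well above it. Irf7 rose by 1.21 ± 0.32 SE (log2) with induction (edgeR adjusted p = 0.0235), 1.5 ± 0.32 with ABX alone (adjusted p = 0.00241) and 2.46 ± 0.57 with hippuric acid (adjusted p = 0.025). Stat2 and Irf9, which are part of the complex that binds the response element, had smaller estimates. Stat2 rose with ABX alone (0.63 ± 0.19, adjusted p = 0.0179) and was not called with induction (0.17) or hippuric acid (2.08-fold, adjusted p = 0.112). Irf9 was not called in any comparison, with log2 fold changes of 0.21, 0.54 and 0.97 in the 3 comparisons.

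The IFIT proteins bind viral RNA and hold back its translation. Ifit2 ranged from 6.71 to 14.5 CPM in no_induction (median 11.2), 8.12 to 29.4 in vitiligo (median 14.5), 16.3 to 54.2 in no_induction_ABX (median 19.2) and 10.4 to 24.6 in vitiligo_ABX (median 16.8). With vehicle it was 9.14, 11.6 and 15.8 CPM and with hippuric acid 18.1, 28.1, 33.1, 41.3 and 45.3. All no_induction_ABX libraries were above all no_induction libraries, and all hippuric_acid libraries above all vehicle libraries. Ifit2 rose by 1.54 ± 0.28 SE (log2) with ABX alone (edgeR adjusted p = 0.000862) and by 1.44 ± 0.30 with hippuric acid (adjusted p = 0.0126), and its estimate with induction was 0.68 ± 0.21 (adjusted p = 0.0556). Ifit3b ranged from 1.19 to 3.61 CPM in no_induction (median 2.68), 2.02 to 12.8 in vitiligo (median 4.20), 3.94 to 26.4 in no_induction_ABX (median 5.41) and 1.87 to 11.5 in vitiligo_ABX (median 5.64). Its vehicle values were 1.32, 1.96 and 3.43 CPM and its hippuric acid values 4.24, 12, 19.2, 25.4 and 33.9. The ABX libraries without induction again lay above all controls, as did the hippuric acid libraries. The rises were 0.99 ± 0.27 (adjusted p = 0.0298), 2.16 ± 0.42 (adjusted p = 0.00126) and 3.05 ± 0.68 (adjusted p = 0.0211). Ifit1 and Ifit3 rose by 6.68-fold and 5.56-fold with ABX alone and by 15.6-fold and 7.50-fold with hippuric acid, and Ifit1 was not called with induction (1.19 ± 0.40, adjusted p = 0.0678).

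The OAS enzymes make 2-5A, the activator of RNase L, though not every member of the family has this activity. Oas3 was a rare transcript: it ranged from 0.355 to 0.806 CPM in no_induction (median 0.658), 0.620 to 7.72 in vitiligo (median 1.40), 0.787 to 7.39 in no_induction_ABX (median 1.55) and 0.743 to 3.90 in vitiligo_ABX (median 1.52). With vehicle it was 0.203, 0.378 and 1.18 CPM and with hippuric acid 0.795, 2.66, 4.39, 5.53 and 6.09. Of the vitiligo libraries 8 of 9, and of the no_induction_ABX libraries 5 of 6, exceeded every no_induction library. Oas3 passed the count filter through the vitiligo and the hippuric_acid libraries in those comparisons. Oas3 rose by 1.98 ± 0.43 SE (log2) with induction (edgeR adjusted p = 0.00667), 2.23 ± 0.46 with ABX alone (adjusted p = 0.00179) and 2.64 ± 0.70 with hippuric acid (adjusted p = 0.0343). Oasl2 ranged from 1.83 to 4.78 CPM in no_induction (median 2.85), 3.78 to 31.1 in vitiligo (median 6.88), 5.02 to 27.7 in no_induction_ABX (median 7.09) and 3.58 to 20.8 in vitiligo_ABX (median 11.1). Vehicle values were 1.32, 2.91 and 4.61 CPM and hippuric acid values 4.77, 18.6, 26.4, 36.7 and 49.1. No overlap was seen with ABX alone or with hippuric acid, though hippuric_acid replicate 3 was close to vehicle replicate 001. The Oasl2 rises were 1.61 ± 0.36 (adjusted p = 0.00836), 2.02 ± 0.38 (adjusted p = 0.00102) and 3.17 ± 0.74 (adjusted p = 0.0252). Oas2 and Oasl1 were not called with induction (1.77-fold and 2.89-fold), and Oas1g was not called with hippuric acid (2.96-fold, adjusted p = 0.0691).

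Other antiviral effectors include Cmpk2, a nucleotide kinase encoded beside Rsad2, and Samd9l, which restrains poxvirus replication. Cmpk2 ranged from 2.54 to 7.21 CPM in no_induction (median 3.95), 4.86 to 16.6 in vitiligo (median 7.21), 4.88 to 21.4 in no_induction_ABX (median 8.92) and 3.86 to 8.99 in vitiligo_ABX (median 6.79). It was 5.55, 5.88 and 6.02 CPM with vehicle and 6.15, 11.1, 15.5, 18.3 and 21 with hippuric acid. The vehicle libraries lay close together, and the lowest hippuric acid library was only just above them. Cmpk2 rose by 0.91 ± 0.22 SE (log2) with induction (edgeR adjusted p = 0.0149), 1.43 ± 0.30 with ABX alone (adjusted p = 0.00232) and 1.31 ± 0.34 with hippuric acid (adjusted p = 0.0319). Samd9l ranged from 9.23 to 21 CPM in no_induction (median 14.7), 9.71 to 48.8 in vitiligo (median 29.6), 20.0 to 42.3 in no_induction_ABX (median 34.8) and 12.3 to 37.9 in vitiligo_ABX (median 19.5). Vehicle libraries had 7.75, 20.1 and 25.9 CPM and hippuric_acid libraries 32.2, 36.6, 45.4, 49.4 and 54.5. Vehicle replicate 003 was far below the other vehicle libraries, and the groups did not overlap. The Samd9l rises were 0.95 ± 0.25 (adjusted p = 0.0222), 1.16 ± 0.20 (adjusted p = 0.000464, the smallest of all members with ABX alone) and 1.28 ± 0.34 (adjusted p = 0.0357). Mx1, a dynamin-like GTPase that traps viral nucleocapsids, rose 2.70-fold, 2.86-fold and 4.49-fold. Isg20 was the member that departed most from the rest: it ranged from 2.26 to 8.55 CPM in no_induction and 3.14 to 4.69 in no_induction_ABX, and was not called in any comparison.

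The PARP group is made of ADP-ribosyltransferases, including Parp14, and Dtx3l, the ubiquitin ligase partner of Parp9. Parp14 ranged from 14.8 to 21.7 CPM in no_induction (median 16.9), 16.6 to 45.5 in vitiligo (median 29.1), 22.8 to 50.3 in no_induction_ABX (median 27.7) and 23.1 to 33.7 in vitiligo_ABX (median 29.3). It was 18.3, 20.4 and 21 CPM with vehicle and 27.9, 40.2, 54.8, 63.6 and 71.1 with hippuric acid. The ABX libraries without induction and the hippuric acid libraries lay above all their controls, and 6 of the 9 vitiligo libraries did. Parp14 rose by 0.68 ± 0.17 SE (log2; edgeR adjusted p = 0.0157), 0.90 ± 0.16 (adjusted p = 0.000655) and 1.37 ± 0.27 (adjusted p = 0.0112) with induction, ABX alone and hippuric acid. Parp9 rose in the same 3 comparisons (1.43-fold, 1.63-fold and 2.11-fold). Parp12 was not called with induction (1.16-fold) or hippuric acid (1.51-fold) and rose with ABX alone (1.54-fold).

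Of the remaining interferon-induced genes, Apol9a is an apolipoprotein L family member and Xaf1 a partner of the apoptosis inhibitor XIAP. Apol9a ranged from 0.355 to 1.18 CPM in no_induction (median 0.484), 0.637 to 4.07 in vitiligo (median 1.69), 0.798 to 12.5 in no_induction_ABX (median 1.26) and 0.567 to 4.95 in vitiligo_ABX (median 1.81). Vehicle values were 0.567, 0.735 and 0.811 CPM and hippuric acid values 0.636, 4.12, 7.10, 8.68 and 12.4. In no_induction_ABX, replicates 002 (8.85 CPM) and 004 (12.5 CPM) were far above the other 4 libraries (0.798 to 1.48 CPM), and hippuric_acid replicate 3 lay within the vehicle range. Apol9a passed the count filter only with the vitiligo or ABX libraries in those comparisons. Apol9a rose by 1.71 ± 0.38 SE (log2) with induction (edgeR adjusted p = 0.0081), 2.79 ± 0.61 with ABX alone (adjusted p = 0.00283) and 3.21 ± 0.83 with hippuric acid (adjusted p = 0.0343). Xaf1 ranged from 2.42 to 7.21 CPM in no_induction (median 4.20), 3.65 to 12.6 in vitiligo (median 5.04), 6.34 to 22.8 in no_induction_ABX (median 8.51) and 3.86 to 7.78 in vitiligo_ABX (median 6.64). It was 4.47, 4.53 and 6.08 CPM with vehicle and 5.51, 10.6, 16.2, 19.9 and 21.7 with hippuric acid. The groups overlapped in all these comparisons. Xaf1 rose with ABX alone (1.56 ± 0.31, adjusted p = 0.00144) and hippuric acid (1.55 ± 0.40, adjusted p = 0.032) and was not called with induction (0.59 ± 0.25, adjusted p = 0.142).

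**Figure D5:**
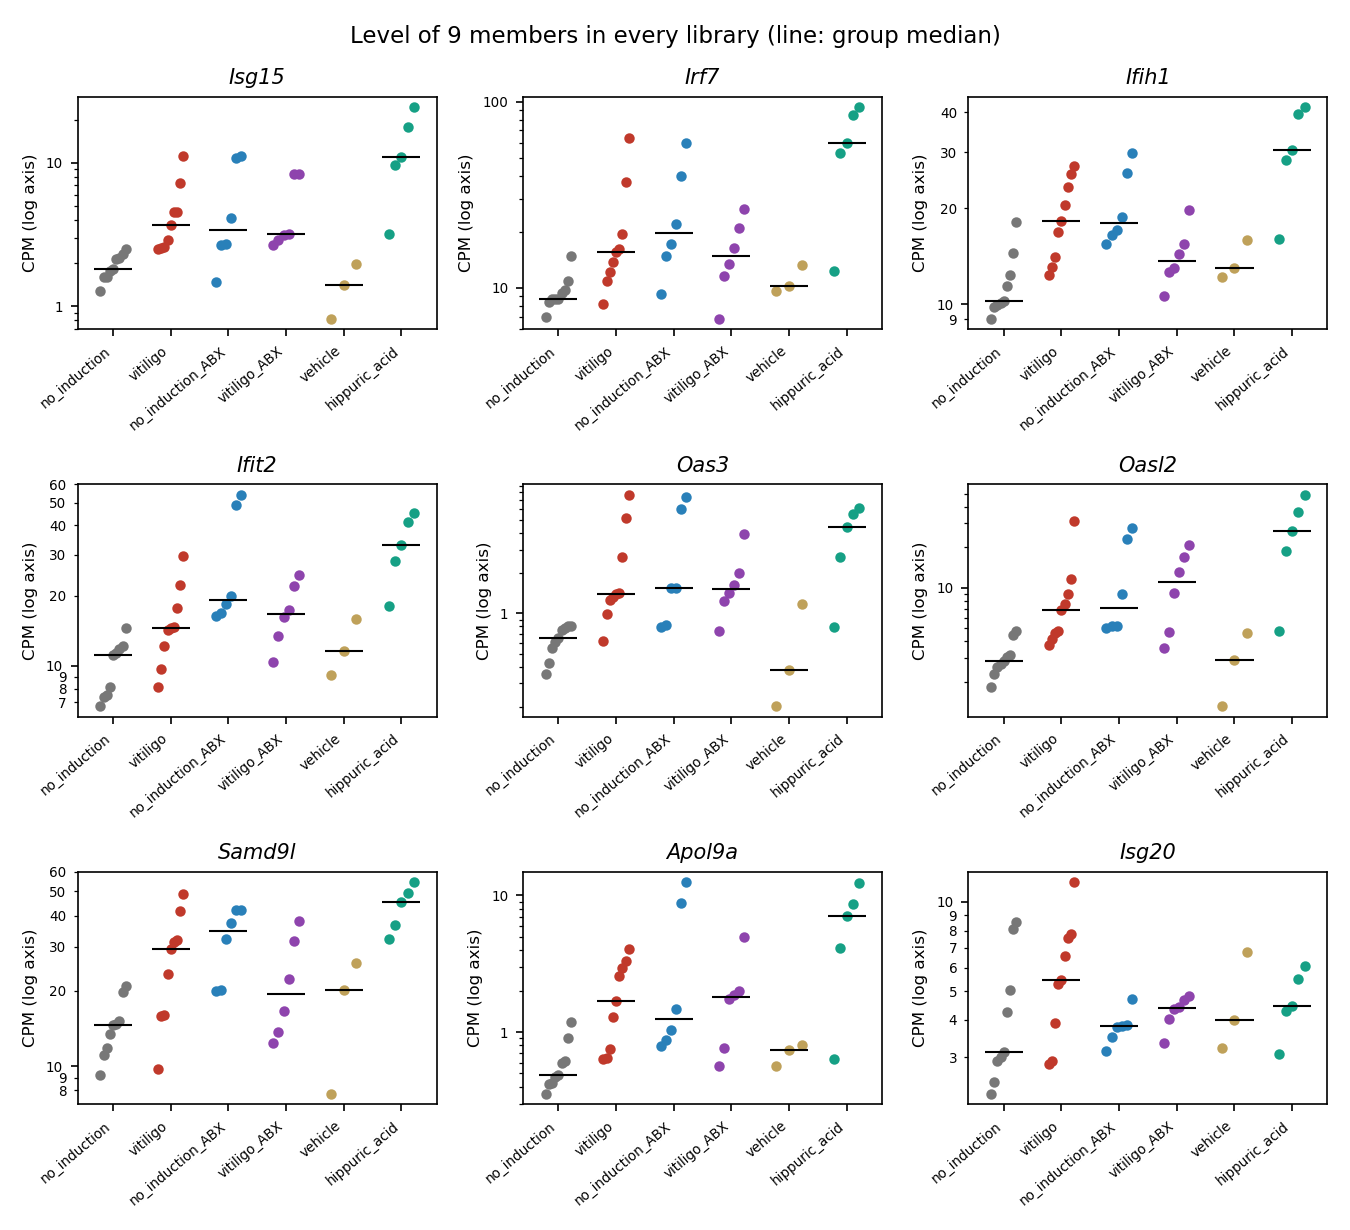
CPM of 9 members in each of the 38 libraries by group, on log axes, with lines at group medians. Isg15, Ifih1, Ifit2, Oasl2 and Samd9l separate hippuric_acid from vehicle, and Isg20 lies between 2.26 and 11.7 CPM in all 6 groups.

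Members with a match of the response element core were compared with those whose promoter entry held none. With induction 10 of 16 members with a match and 8 of 17 without rose, with medians of 0.96 and 0.74 (log2). With ABX alone the counts were 16 of 16 and 13 of 17, with medians of 1.36 and 1.02, and with hippuric acid 13 of 17 and 11 of 17, with medians of 2.0 and 1.31. Over all genes tested, 5.27%, 15.4% and 5.48% were called higher in these comparisons, in the same order. These are descriptions of the list, and the 9 members without an entry, among them Mx1, Zbp1 and Usp18, are not in them. The counts include members that passed the count filter only through the group where they were high. With induction these were Oas1g, Oas3, Apol9a and Apol9b with a match, and Oasl1 and Ifi44 without. No difference between members with and without a match is drawn from the counts.

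The rest of the pathway was examined by lists of upstream and neighbouring genes. Of the ligands, 9 interferon genes were in the table and none had counts enough to be tested: 5 were at 0 in all 38 libraries, and the highest value of the other 4, Ifnb1, Ifnk, Ifnl2 and Ifnl3, was 0.0530 CPM. A count of 0 in the smallest library allows up to 3 counts, or 0.196 CPM, for counting error only. Receptor and kinase genes were called only with ABX alone, where Ifnar1 rose (0.42 ± 0.08 SE, edgeR adjusted p = 0.00135). That is 1 of 6, near the 15.4% of all genes called higher there, so it is no result about the receptors. Irf8, a myeloid transcription factor, rose with induction (0.74 ± 0.22, adjusted p = 0.0449) and fell in vitiligo_ABX against vitiligo (-0.78 ± 0.25, adjusted p = 0.0432), and Irf5 rose with hippuric acid (0.42 ± 0.10, adjusted p = 0.0187). Each was 1 of 5 transcription factors tested, where 5.27%, 8.05% and 5.48% of all genes were called in those directions, in the same order.

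Among 13 sensors and adaptors upstream of the ligands, 0 were called with induction. Of all genes tested, 5.27% were called higher and 2.47% lower with induction, and 15.4% and 15.8% with ABX alone. The shares were 5.48% and 8.29% with hippuric acid, and 5.06% and 8.05% in vitiligo_ABX against vitiligo. With ABX alone Sting1, Tbk1, Tlr7, Tlr8 and Unc93b1 rose and Mavs fell, and the largest was Tlr7, a receptor for single-stranded RNA in endosomes (0.88 ± 0.29 SE, edgeR adjusted p = 0.0273). With hippuric acid Tlr3, Tlr7, Tlr8, Tlr9 and Traf3 rose, by 0.53 to 0.76 on the log2 scale. Traf3 also rose in vitiligo_ABX against vitiligo (0.36, edgeR adjusted p = 0.0239), 1 of 13 and near the share of all genes called higher there. Of 10 brakes on the pathway, Socs3 rose (0.67) and Rnaseh2a fell (-0.36) with hippuric acid, and Adar, which edits double-stranded RNA, rose in vitiligo_ABX against vitiligo (0.37). Each was 1 of 10 in its direction, near the shares of all genes given above, so none is a result about the brakes.

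Genes induced mainly by interferon gamma overlap with this response. Of all genes tested, 5.27% were called higher with induction, 15.4% with ABX alone and 5.48% with hippuric acid. In the interaction 4.77% of all genes were called lower. With induction 6 of 14 tested rose: the T cell attractant Cxcl9 (2.55 ± 0.47 SE, log2, edgeR adjusted p = 0.00166), Gbp2 (1.14), Gbp3 (1.00), H2-Aa (0.86), Irgm1 (0.56) and Ifngr1 (0.52). With ABX alone 7 of 13 rose, all of them guanylate-binding or immunity-related GTPases (Gbp2, Gbp3, Gbp4, Igtp, Iigp1, Irgm1 and Irgm2), the largest being Gbp3 (1.7 ± 0.27, adjusted p = 0.000286). Cxcl9 did not pass the count filter there, and the antigen-presentation gene H2-Aa was not called (0.12 ± 0.13, adjusted p = 0.517). With hippuric acid 4 of 14 rose (Gbp3, Gbp4, Iigp1 and Irgm2), Cxcl9 had an estimate of -1.14 ± 0.71 (adjusted p = 0.304) and H2-Aa of 0.13 ± 0.20 (adjusted p = 0.704). In the interaction Gbp2, Gbp3, H2-Aa and Iigp1 were called lower (4 of 14). H2-Aa also fell in vitiligo_ABX against vitiligo (-0.71, edgeR adjusted p = 0.032). That is 1 of 14 tested, near the 8.05% of all genes called lower there, so it is no result about this list. Ifng itself had too few counts to be tested anywhere.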

How the data were processed

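Tail skin poly(A) RNA was sequenced, per the labels' protocols, and the authors deposited a table of 19220 rows and 38 libraries. Per the file headers the columns are counts per gene. The values the authors deposited are expected counts (estimated counts that need not be whole) without normalization: 3107 genes (16.2%) held a value that was not whole. Among tools, the notes on processing list HISAT2, StringTie (1.3.1), Bowtie2 (2.2.8) and also DESeq2, with no step given for any. The counter, build and strand setting are not given in the sources used here, so antisense overlap cannot be judged. An incomplete last row was left out, and counts were rounded, which changed library totals by at most 22.1.

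Each comparison was fitted on the libraries of its groups with edgeR 4.0.16 (R 4.3.3): low-count filter by group, TMM factors, robust quasi-likelihood F test, two-sided, Benjamini-Hochberg adjustment over all genes tested, called at adjusted p under 0.05 with no fold limit. The fit was tested on simulated data with 200 changed genes. The interaction used 4 groups. Per role, the members with the smallest p with induction and with ABX alone are described in full, and those called in the interaction are named. Members and lists were chosen with earlier results of these data known. Promoter sequences come from RefSeq. Alternatives used limma 3.58.1, DESeq2 1.42.0 and sva 3.50.0. Members that reached the cutoff of the count filter in too few libraries of the reference group were listed. For the group comparisons with calls, counts are also given without them, but not for the interaction or by promoter match.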

Additional observations from a re-analysis of the deposited data

Results flagged for a closer look

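Of 70 sets of libraries checked for a single library far from the others (a gene or the interferon level in a group), 4 had one, and chance alone gives about 1 in 20. Herc6 was 3.84 CPM in no_induction replicate 005, where the other 8 libraries had 1.77 to 2.37. In vitiligo replicate 000, Ifit3b was 12.8 CPM (the others 2.02 to 5.51) and Cmpk2 was 16.6 CPM (the others 4.86 to 8.93). Irf7 was 12.4 CPM in hippuric_acid replicate 3, where the other 4 libraries had 52.8 to 93.5.

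By the interaction test, the effect of induction differed between the groups with and without ABX for 19 members. Oas3, Ifi44 and Apol9a are among them and, as given above, are not used as support. The number fell to 6 without no_induction_ABX replicate 002, and was also lower with a surrogate variable or a covariate, as given above. The difference of effects (log2) was -1.31 for Herc6, -1.24 for Ifih1, -2.19 for Zbp1 and -1.98 for Irf7. In the IFIT family it was -2.61 for Ifit1, -1.43 for Ifit2, -2.43 for Ifit3 and -1.88 for Ifit3b, and in the OAS family -1.76 for Oas1a and -2.71 for Oas3. It was -2.26 for Mx1, -1.68 for Cmpk2, -1.47 for Samd9l, -1.71 for Rtp4, -0.84 for Parp9, -0.85 for Parp14, -2.23 for Ifi44, -1.57 for Xaf1 and -2.79 for Apol9a. The cause was not tested.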

How the results depend on the processing

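No member was called in the opposite direction in the comparisons with calls under the alternatives run. In vitiligo_ABX against vitiligo 0 members were called under all of them, but the estimates moved: 41 of 42 were above 0 with the replicate block (median 0.67). These groups share only 2 label numbers, 1 and 6, so the block estimate rests on those libraries, which have no stated pairing. Vitiligo_ABX replicate 001 had the highest interferon level of its group (3.51) and vitiligo replicate 001 the lowest of its own (2.53). No direction is read from this setting. The number of members called higher with induction (24) was 13 with a limit of 2-fold, 40 with limma-voom, 4 with 1 surrogate variable, 0 with the adipocyte level as covariate, 0 with the Hoxb13 level as covariate and 4 without the libraries over 2 times the median gut marker level, an alternative added after seeing the data, since the planned limit of 10 times left no library out and was not run. With ABX alone (37) it was 24 with a limit of 2-fold, 6 with the adipocyte level and 0 with the Hoxb13 level. With hippuric acid (33) it was 2 with limma-voom, 0 with the adipocyte level, 0 with the Hoxb13 level and 20 without the vehicle library that held Y-linked transcripts. Members called lower in the interaction (19) were 36 with limma-voom, 3 with 1 surrogate variable, 1 with the adipocyte level, 2 with the Hoxb13 level and 8 without the libraries of high gut marker level. DESeq2 called 1 member lower in vitiligo_ABX against no_induction_ABX, where edgeR called 0. Leaving out 1 library gave 12 to 34 with induction, 8 to 41 with hippuric acid and 6 to 31 in the interaction. With the adipocyte level as covariate, 8 estimates with induction changed sign: Herc6 -0.14, Irf7 -0.0472, Ifit3b -0.0932, Ifit2 -0.41, Oasl2 -0.11, Cmpk2 -0.35, Samd9l -0.29 and Xaf1 -0.87. Samd9l with hippuric acid was -0.93 with the Hoxb13 level. The cause was not tested. The adipocyte sum did not overlap between vitiligo and no_induction, hippuric_acid and vehicle, or vitiligo_ABX and vitiligo, so it and the group cannot be told apart there. The Hoxb13 level overlapped between vitiligo and no_induction and between the ABX groups. It did not overlap between no_induction_ABX and no_induction, hippuric_acid and vehicle, or vitiligo_ABX and vitiligo. The Hoxb13 level and the group cannot be told apart in those comparisons. With the replicate block, 4 members were called with ABX alone, 26 with hippuric acid and 0 in the interaction. The label numbers share no stated origin: the correlations of same-numbered libraries were -0.14 to 0.38 over 4 numbers, -0.09 to 0.18 over 3 and -0.04 to 0.36 over 6, so they were not taken as pairs. No paired analysis was possible for vitiligo against no_induction because they share a single number. Low counts limit Ifi206, Oas1g, Oas3, Oasl1, Ifi44, Apol9a and Apol9b, which were under about 1 CPM in most no_induction libraries.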
